A study of Mus musculus with 10 samples.

Results

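The mesothelial markers described here are 9 genes of the mesothelium and the coelomic lining, taken by gene symbol from a list that leaves out keratins, Wt1 and the Aldh1 genes: Msln, Upk3b, Upk1b, Podxl, Lrrn4, Muc16, Bnc1, Gpm6a and Efemp1. All 9 were found, on 18 of the 62976 features of the array, among 20738 gene symbols in all. Upk1b was named by 10 features and each of the other genes by 1. RNA was measured on 10 single-colour Agilent arrays of cultured mouse cells. The cells tested were ieSCs, induced embryonic Sertoli-like cells. They were made from TTFs (tail tip fibroblasts of females) on 4 arrays and from MEFs (fibroblasts of mouse embryos) on 4, and the remaining 2 arrays were of MEFs themselves. Per the labels, every group was homozygous for R26-M2rtTA, the doxycycline-controlled activator at the Rosa26 locus. The ieSCs carried transgenes for Nr5a1, Wt1, Dmrt1, Gata4 and Sox9 and the MEFs carried none. All cells were kept 2 weeks without doxycycline in F12/DMEM medium. Each kind of ieSC has 2 source names, 1 and 2, with 2 arrays each, and the MEFs have 1 source name with 2 arrays. The labels do not say whether 2 arrays of a name came from separate cultures or whether an ieSC line is a clone. The p-values therefore rest on the spread among arrays and among names, which may be technical in part.

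The mesothelium is the flat epithelium that lines the body cavities and covers their organs, and the gonad forms from a thickening of the coelomic epithelium, its embryonic forerunner. Mesothelin (Msln) is a glycoprotein anchored at the cell surface, and the mucin Muc16, known in humans as the tumour antigen CA125, binds it. Sertoli cells descend in large part from the coelomic epithelium, which gives these genes a place in the comparison of ieSCs with fibroblasts. The list is called a list of surface markers, but Bnc1 encodes a nuclear zinc finger protein and Efemp1 a secreted matrix protein.

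Of the 9 markers, 8 were higher in ieSCs than in MEFs, by 2.61 to 5.97 on the log2 scale (the highest being Podxl, against dim MEF values), and the difference of Efemp1 was -2.45. In limma with Benjamini-Hochberg adjustment over 16650 genes, all 9 passed an adjusted p of 0.05 for all ieSCs against MEFs, 8 higher and 1 lower. Over all genes 49.5% passed, 25.9% higher and 23.6% lower. The median log2 difference was 4.1 over the 9 markers and 0.0851 over all genes tested. On every ieSC array 8 of the 9 markers lay above both MEF arrays, as did 28.7% of all genes. In TTF-derived ieSCs against MEFs, 8 markers rose and 1 fell, where 23.3% and 21.9% of all genes did. In MEF-derived ieSCs against MEFs, 7 rose and 0 fell, where 27.2% and 24% of all genes did. Lrrn4 and Efemp1 were the markers that did not pass in MEF-derived ieSCs. These comparisons share the 2 MEF arrays. A rise or fall in TTF-derived ieSCs means a difference from MEFs, since no unconverted TTFs are analysed here. In bulk RNA, a change in the share of cells that express a gene and a change in the RNA per cell cannot be told apart.

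**Figure D1:**
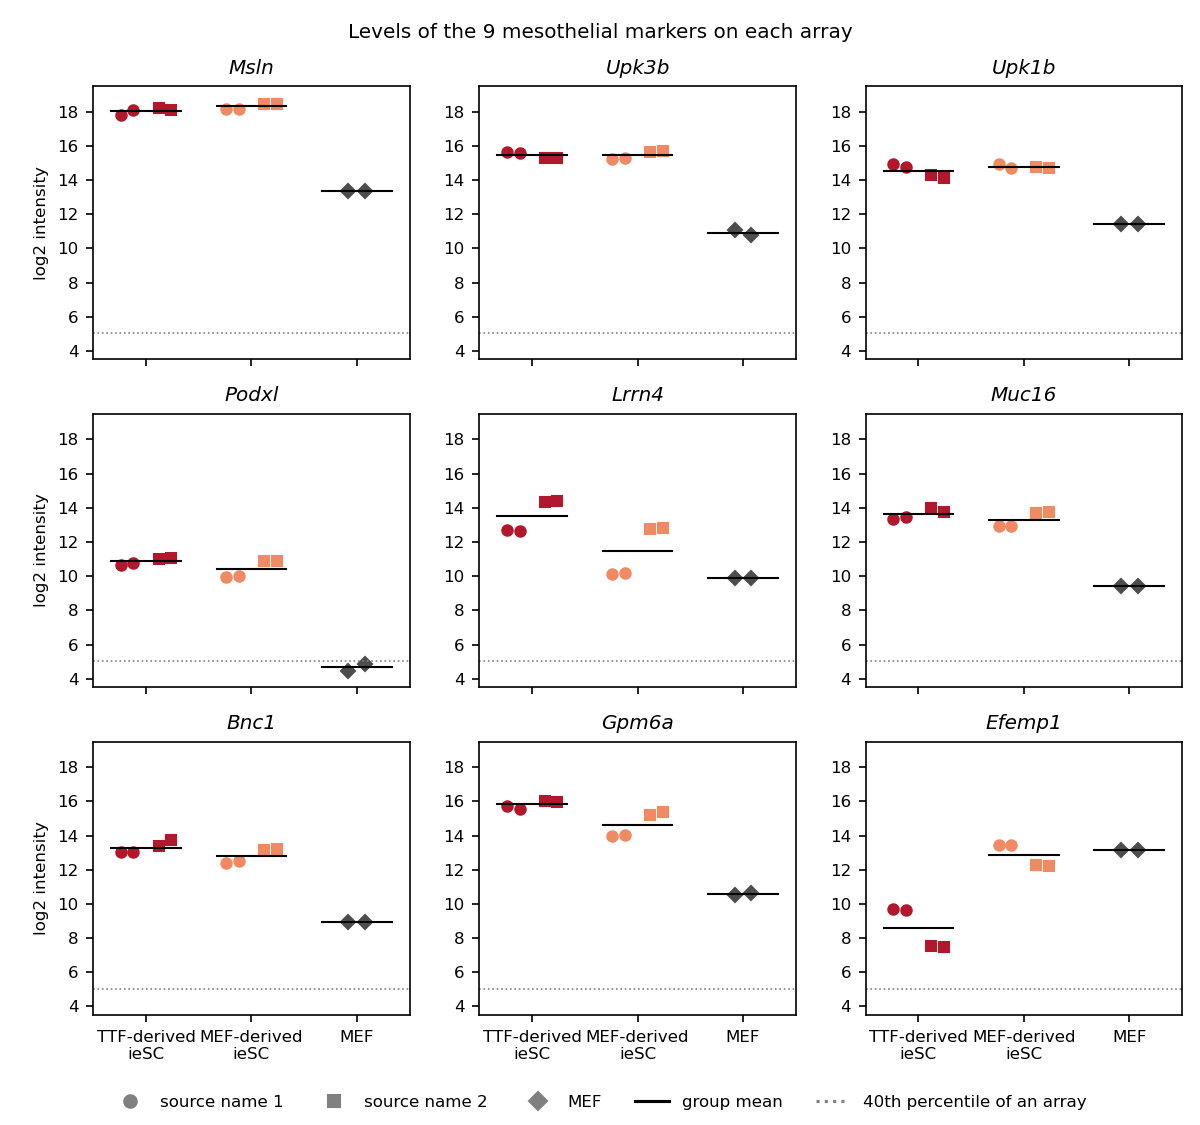
Level of each of the 9 markers on each array (vertical axis, log2 intensity as deposited), by group. Circles are source name 1, squares source name 2, diamonds MEF, bars group means, and the dotted line the 40th percentile of an array (5.023 at most). In 8 panels all ieSC arrays lie above both MEF arrays, and Efemp1 is low in TTF-derived ieSCs alone.

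RefSeq promoter windows (GRCm38.p6, 250 bases before to 50 after a start site) were matched for 6 of the 9 genes: Upk3b, Lrrn4, Muc16, Bnc1, Gpm6a and Efemp1. Msln, Upk1b and Podxl had no entry. The windows were searched on both strands for 7 short motifs. GGAATG, the core letters bound by TEAD factors, was in the windows of 3 of the 6 genes, Upk3b, Lrrn4 and the first of 2 start sites of Gpm6a, each with 1 match. It was in 14.7% of all 32851 windows of this length. Muc16 and Bnc1 were also higher in ieSCs, but their windows have no GGAATG and are not shown. The 3 windows shown for higher markers were chosen because they hold a match, and that of Efemp1 because this marker went the other way. The second Gpm6a window has no match and is not shown. The windows shown are thus no sign that a match goes with a rise. They lie at chr5:136038246-136038545 (plus strand) for Upk3b, chr2:132880813-132881112 (minus strand) for Lrrn4, chr8:54779184-54779483 (plus strand) for Gpm6a and chr11:28852955-28853254 (plus strand) for Efemp1. Capitals mark GGAATG or its reverse complement CATTCC, and the Efemp1 window has none.
Upk3b: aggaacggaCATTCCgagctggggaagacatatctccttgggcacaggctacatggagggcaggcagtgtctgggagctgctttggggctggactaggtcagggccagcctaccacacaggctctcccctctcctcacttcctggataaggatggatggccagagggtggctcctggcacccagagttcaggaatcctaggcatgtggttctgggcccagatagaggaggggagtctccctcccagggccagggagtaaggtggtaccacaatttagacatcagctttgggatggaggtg
Lrrn4: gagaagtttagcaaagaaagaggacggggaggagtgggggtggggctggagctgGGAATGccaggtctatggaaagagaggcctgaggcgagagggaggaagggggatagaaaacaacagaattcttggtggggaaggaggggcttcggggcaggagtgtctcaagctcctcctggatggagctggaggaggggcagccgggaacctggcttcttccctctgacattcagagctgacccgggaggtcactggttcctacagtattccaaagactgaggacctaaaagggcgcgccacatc
Gpm6a: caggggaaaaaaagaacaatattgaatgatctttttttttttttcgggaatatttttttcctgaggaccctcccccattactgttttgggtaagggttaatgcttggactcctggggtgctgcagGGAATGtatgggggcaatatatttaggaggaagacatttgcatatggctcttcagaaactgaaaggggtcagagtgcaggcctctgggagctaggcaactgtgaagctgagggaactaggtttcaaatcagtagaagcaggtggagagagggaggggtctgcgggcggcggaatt
Efemp1: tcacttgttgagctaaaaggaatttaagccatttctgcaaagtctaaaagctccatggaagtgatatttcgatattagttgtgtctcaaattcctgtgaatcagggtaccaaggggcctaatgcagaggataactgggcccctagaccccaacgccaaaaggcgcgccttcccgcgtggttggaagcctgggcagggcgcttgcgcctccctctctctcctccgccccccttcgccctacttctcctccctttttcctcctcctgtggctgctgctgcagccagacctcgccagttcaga
The GATA letters AGATAA, the NR5A letters CAAGGTC and the WT1 and EGR letters GCGTGGG were in none of the 7 windows of the 6 genes, and in 11.2%, 3.96% and 5.04% of all windows. The GC box GGGCGG was in the windows of Bnc1, with 6 matches, and of Gpm6a and Efemp1, with 1 each, and in 35.7% of all windows. The Bnc1 window was 83.3% G and C, against a median of 52.7% over all windows. The SOX letters AACAAT and the E-box CAGGTG each had 1 match, in Gpm6a, and were in 10.7% and 20.2% of all windows. No GGAATG match overlapped another motif. A match describes the letters of a window and does not show binding.

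Mesothelin and its binding partner Muc16 were both higher in ieSCs. Msln stood at 17.78, 18.08, 18.23 and 18.09 in TTF-derived ieSCs and at 18.15, 18.13, 18.47 and 18.47 in MEF-derived ieSCs, against 13.37 and 13.36 in MEFs. The ieSC arrays were thus alike and all lay at least 4.42 above the MEF arrays. The difference of all ieSCs from MEFs was 4.81 ± 0.18 (SE), a 28.1-fold rise, with a 95% interval of 4.41 to 5.22 (limma adjusted p = 5.03e-08). The ieSC values lie near the top of the scale, whose highest value is 19.02. Between 73 and 256 of the 62976 features were brighter than Msln on an ieSC array, and the table gives no saturation flags. Muc16 stood at 13.36, 13.44, 13.98 and 13.74 in TTF-derived and at 12.91, 12.91, 13.68 and 13.73 in MEF-derived ieSCs, against 9.42 and 9.40 in MEFs. It was 16.7-fold higher in ieSCs, with a log2 difference of 4.06 ± 0.27 (limma adjusted p = 1.85e-06). Name 2 was the brighter one in both kinds of ieSC.

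Both uroplakins rose in each kind of ieSC. Uroplakins are known as the proteins of the urothelial plaque. Upk1b is a tetraspanin among them, and Upk3b is a single-pass membrane protein also used as a mesothelial marker. Upk3b stood at 15.65, 15.56, 15.27 and 15.30 in TTF-derived and at 15.23, 15.27, 15.62 and 15.68 in MEF-derived ieSCs, against 11.07 and 10.78 in MEFs. Its difference from MEFs was 4.52 ± 0.21 in TTF-derived and 4.53 ± 0.21 in MEF-derived ieSCs (limma adjusted p = 2.56e-07 and 2.11e-07). The difference between the 2 kinds of ieSC was -0.0049, with a 95% interval of -0.398 to 0.388. On the Upk1b feature taken for the gene, TTF-derived ieSCs stood at 14.92, 14.78, 14.32 and 14.14 and MEF-derived ieSCs at 14.93, 14.71, 14.75 and 14.69, against 11.43 and 11.42 in MEFs. Upk1b was 9.36-fold higher in ieSCs, with a log2 difference of 3.23 ± 0.22 (limma adjusted p = 1.96e-06).

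The 10 features that name Upk1b show how closely repeated measurements of a gene agree within an array. Their range within an array was 0.309 to 0.584 and their SD 0.112 to 0.176, so the ieSC and MEF levels stayed apart on each feature. In the fit over all 42617 kept features, 10 of 10 rose in all ieSCs against MEFs, by 3.21 to 3.37, where 24.6% of all features rose. Between TTF-derived and MEF-derived ieSCs 0 of 10 passed in limma, where 33.8% of all features did, with differences of -0.227 to -0.0684. At an unadjusted p under 0.05 the count was 0 of 10, and without the name block it was 0 unadjusted and 0 adjusted.

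Podxl was higher in both kinds of ieSC, against dim values in MEFs. Podocalyxin, its product, is a sialomucin of the CD34 family known from podocytes, endothelium and mesothelium. It stood at 10.63, 10.76, 11.02 and 11.06 in TTF-derived and at 9.93, 9.99, 10.87 and 10.91 in MEF-derived ieSCs, against 4.48 and 4.89 in MEFs. Both MEF values lie below the 40th percentile of their arrays (4.988 to 5.023 over the 10 arrays), and Podxl entered the test through the ieSC arrays. The log2 difference was 5.97 ± 0.32 (limma adjusted p = 4.12e-07), and 5.64 with dim values raised to that percentile, a choice that sets the MEF level. The other 8 markers were above the percentile on all 10 arrays.

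Ezrin and the NHERF scaffold proteins are known to tie podocalyxin to the actin cortex. Of 6 tested genes on a list of podocalyxin partners, 4 were higher in ieSCs than in MEFs and 1 lower, with a median of 0.759. The shares over all genes were 25.9% higher and 23.6% lower. In TTF-derived ieSCs 2 were higher and 1 lower, with a median of 0.167, where 23.3% and 21.9% of all genes were. In MEF-derived ieSCs 4 were higher and 1 lower, with a median of 1.38, where 27.2% and 24% of all genes were. Ezrin (Ezr) rose by 3.78 ± 0.16 (limma adjusted p = 9.79e-08), with mean levels of 16.54 in TTF-derived and 16.44 in MEF-derived ieSCs, against 12.71 in MEFs. Slc9a3r1, which encodes NHERF1, rose by 2.52 ± 0.37 (limma adjusted p = 0.000355). Slc9a3r2, which encodes NHERF2, rose by 0.54 over all ieSCs. It rose by 1.39 in MEF-derived ieSCs and did not pass in TTF-derived ieSCs, at -0.31 (limma adjusted p = 0.065), and the 2 kinds differed (limma adjusted p = 2.55e-06). Radixin (Rdx), a relative of ezrin, fell by 0.68. Msn, also on the list, rose by 0.98 over all ieSCs (limma adjusted p = 0.0476). It did not pass in TTF-derived ieSCs, at 0.59 (limma adjusted p = 0.265).

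Bnc1 and Gpm6a rose in both kinds of ieSC. Basonuclin 1 (Bnc1) is a zinc finger protein known from keratinocytes and germ cells as well as mesothelium. It stood at 13.03, 13.02, 13.39 and 13.73 in TTF-derived and at 12.41, 12.49, 13.15 and 13.19 in MEF-derived ieSCs, against 8.93 and 8.97 in MEFs. The log2 difference was 4.10 ± 0.28, a 17.2-fold rise (limma adjusted p = 2.12e-06). Gpm6a encodes the membrane glycoprotein M6-A of the proteolipid protein family, best known from neurons. It stood at 15.75, 15.57, 16.05 and 15.97 in TTF-derived and at 13.98, 14.01, 15.22 and 15.37 in MEF-derived ieSCs, against 10.50 and 10.66 in MEFs. It rose by 5.25 ± 0.41 in TTF-derived ieSCs, 38.2-fold, and by 4.07 ± 0.41 in MEF-derived ieSCs, 16.7-fold (limma adjusted p = 6.55e-06 and 3.09e-05).

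Lrrn4 rose with less certainty. It encodes a leucine-rich repeat membrane protein first described in neurons and used as a mesothelial marker in the mouse. It stood at 12.71, 12.65, 14.36 and 14.42 in TTF-derived and at 10.10, 10.18, 12.75 and 12.84 in MEF-derived ieSCs, against 9.91 and 9.87 in MEFs. No ieSC array overlapped the MEF arrays, but MEF-derived name 1 lay as little as 0.194 above them. The difference was 3.65 ± 0.91 in TTF-derived ieSCs (limma adjusted p = 0.00901). In MEF-derived ieSCs it was 1.58 ± 0.91 and did not pass (limma adjusted p = 0.179, 95% interval -0.469 to 3.63). Over all ieSCs the adjusted p of Lrrn4 was 0.026. Averaging the arrays of a name gave 0.192. Leaving out the first or second MEF array gave 0.0563 and 0.0598, and leaving out TTF-derived name 2 gave 0.0582. For TTF-derived ieSCs alone it was 0.134 with averaged arrays and 0.0563 without that name. In MEF-derived ieSCs the difference of Lrrn4 was 2.9 without MEF-derived name 1 (limma adjusted p = 0.00777) and 0.252 without MEF-derived name 2 (limma adjusted p = 0.779).

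Efemp1 was the exception among the 9, since it was lower in TTF-derived ieSCs and did not pass the test in MEF-derived ieSCs. Its product, fibulin-3, is a secreted protein of the extracellular matrix, known in humans as a marker of mesothelioma. No array of unconverted TTFs is analysed here, so a fall in TTF-derived ieSCs is a difference from MEFs, not from the starting cells. Efemp1 stood at 9.71, 9.67, 7.57 and 7.47 in TTF-derived and at 13.47, 13.44, 12.26 and 12.21 in MEF-derived ieSCs, against 13.18 and 13.15 in MEFs. All 4 TTF-derived arrays lay below every other array, while the MEF-derived arrays lay on either side of the MEF arrays. It fell by 4.57 ± 0.72 in TTF-derived ieSCs, 23.7-fold (limma adjusted p = 0.000636), and this p was 0.0525 with averaged arrays. In MEF-derived ieSCs the difference was -0.32 ± 0.72 (limma adjusted p = 0.743, 95% interval -1.94 to 1.3). The value over all ieSCs, -2.45 ± 0.66 (limma adjusted p = 0.012, and 0.142 with averaged arrays), is thus a mean of unlike groups.

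**Figure D2:**
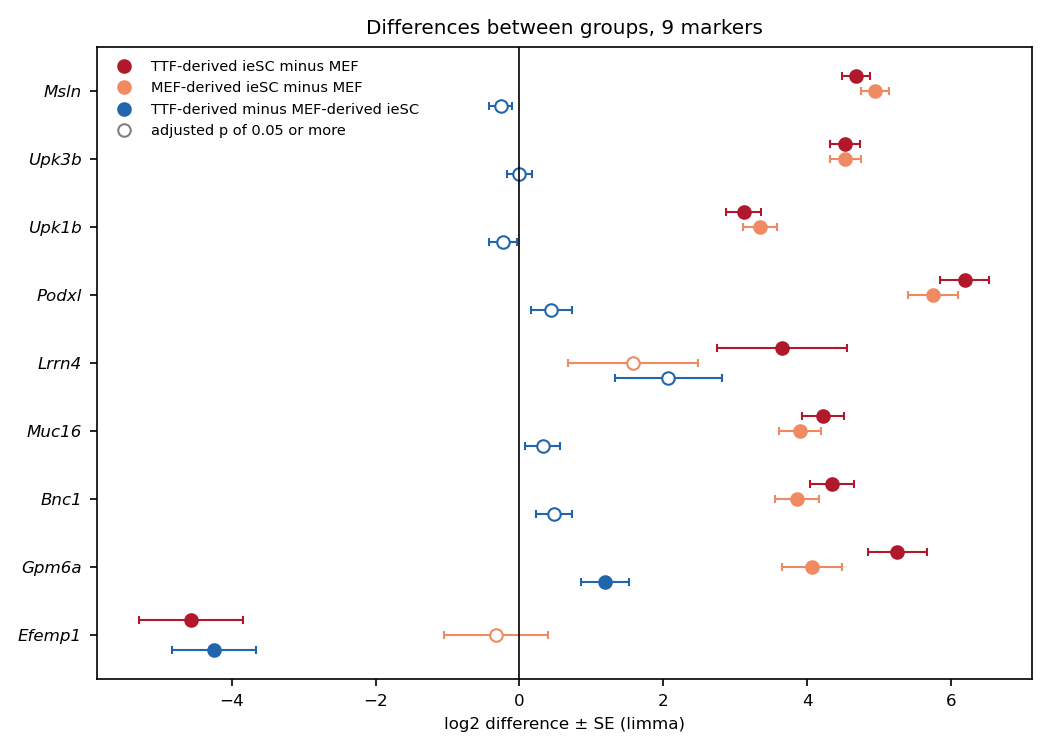
Log2 differences (horizontal axis, limma estimate ± SE) of the 9 markers for TTF-derived ieSCs minus MEFs, MEF-derived ieSCs minus MEFs and TTF-derived minus MEF-derived ieSCs. Filled points passed an adjusted p of 0.05. Only Gpm6a and Efemp1 passed between the 2 kinds of ieSC.

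TTF-derived and MEF-derived ieSCs were set against each other. No array of unconverted TTFs is analysed here and each kind has 2 source names, so the starting fibroblast and the preparation cannot be told apart. Of the 9, 1 was higher in TTF-derived ieSCs, 1 was lower and 7 did not pass, where 16.8% and 19.3% of all genes were higher and lower. Gpm6a was higher in TTF-derived ieSCs by 1.19 ± 0.34, 2.28-fold, with a 95% interval of 0.431 to 1.95 (limma adjusted p = 0.0213). All 4 TTF-derived arrays lay above the MEF-derived ones, by at least 0.204. The call was lost without TTF-derived name 2, where the difference of Gpm6a was 1.02 (limma adjusted p = 0.121). It was also lost without MEF-derived name 1, where the difference was 0.538 (limma adjusted p = 0.0571). With averaged arrays the limma adjusted p was 0.185. Efemp1 was 18.9-fold lower in TTF-derived ieSCs, with a difference of -4.24 ± 0.59 (limma adjusted p = 0.000488, and 0.059 with averaged arrays). Lrrn4 differed by 2.07 ± 0.74 and missed the threshold (limma adjusted p = 0.0556, 95% interval 0.397 to 3.74). Its adjusted p was 0.044 without the name block, 0.0439 with a stricter filter and 0.0369 with a trend in the prior variance, but 0.0689 with no filter, 0.0784 with the series of the label codes as a term and 0.279 with averaged arrays. The difference of Lrrn4 was 1.21 without TTF-derived name 2 and 0.742 without MEF-derived name 1 (limma adjusted p = 0.335 and 0.375). Without MEF-derived name 2, Lrrn4, Podxl, Muc16 and Bnc1 also passed, at 3.4, 0.908, 0.718 and 0.843 higher in TTF-derived ieSCs. Without TTF-derived name 1, Lrrn4 passed at 2.93 and Upk1b at -0.535. On all arrays the 6 markers other than Gpm6a, Efemp1 and Lrrn4 differed by -0.26 to 0.483, and the widest of their 95% intervals, that of Podxl, was -0.197 to 1.08. A p that misses the threshold does not show that the 2 kinds have equal levels.

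Within each kind of ieSC the markers differed between source names 2 and 1, and 6 of the 9 (Msln, Podxl, Lrrn4, Muc16, Bnc1 and Gpm6a) were higher in name 2 in both kinds. Efemp1 and Upk1b were lower in name 2 in both kinds, and Upk3b was lower in TTF-derived and higher in MEF-derived name 2. Lrrn4 was higher in name 2 by 1.72 in TTF-derived and by 2.65 in MEF-derived ieSCs, and 1.61% and 0.42% of all genes differed as much or more. Efemp1 differed by -2.17 and -1.22 between names 2 and 1, as much as or more than which 0.841% and 2.97% of all genes did. The 2 arrays of a name differed by at most 0.0894 for Lrrn4 and 0.0988 for Efemp1. In MEF-derived ieSCs Gpm6a was higher in name 2 by 1.3 and Podxl by 0.933, against 0.343 and 0.339 in TTF-derived ieSCs. Over all genes, 49.8% were higher in TTF-derived name 2 and 50% in MEF-derived name 2. The difference between names had the same sign in both kinds for 61% of all genes. The differences between names were not tested, because each name has no more than 2 arrays of possibly 1 culture. Name numbers are not stated to link a TTF-derived with a MEF-derived preparation.

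**Figure D3:**
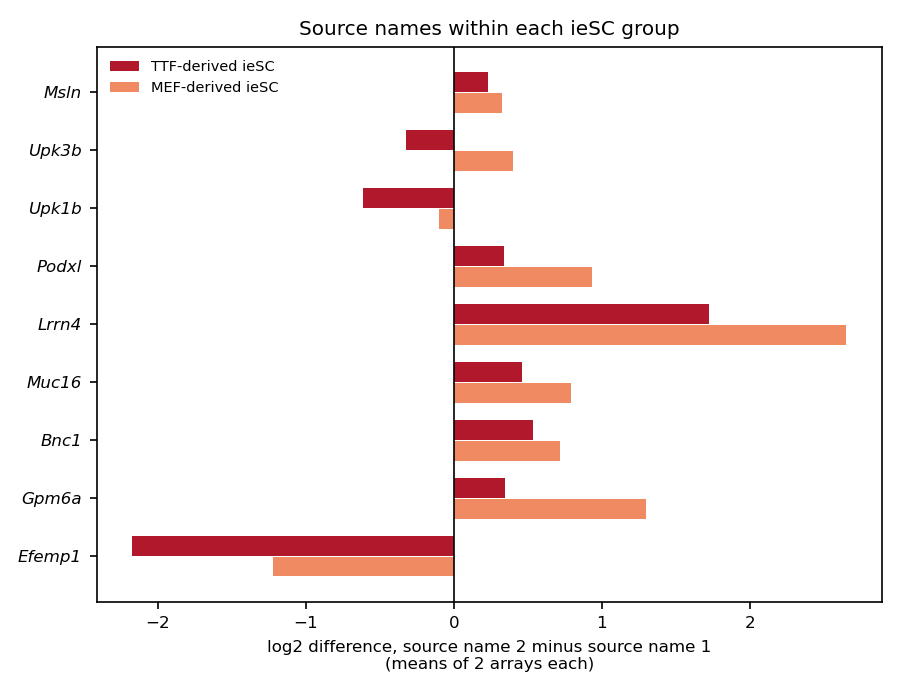
Log2 difference of source name 2 minus source name 1 (horizontal axis, means of 2 arrays each) for the 9 markers in TTF-derived and MEF-derived ieSCs. Lrrn4 shows the largest positive and Efemp1 the largest negative values in both kinds.

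Related genes from the same families were read from the same fit. Of 19 tested relatives, 3 were higher in ieSCs and 11 lower, with a median of -2.19, where 25.9% and 23.6% of all genes were. By smallest p the leading ones were Gpm6b, Podxl2, Lrrn3 and Hmcn1, and the remaining relatives are named to complete the families, a choice made after their values were seen. Gpm6b, which encodes the M6-B glycoprotein, fell by 9.84 ± 0.23, while Gpm6a rose. Its mean level was 3.92 in TTF-derived and 4.19 in MEF-derived ieSCs, against 13.9 in MEFs. The other genes of the LRRN family, Lrrn1, Lrrn2 and Lrrn3, fell, with differences of -2.19, -5.78 and -8.56, while Lrrn4 rose. Podxl2 (endoglycan) and Cd34, the family members of Podxl, fell, with differences of -6.08 and -3.42, and Cd34 did not pass in MEF-derived ieSCs, at -1.51 (limma adjusted p = 0.162). Bnc2 fell by 1.35 ± 0.19, while Bnc1 rose. The mean ieSC levels of Gpm6b, Podxl2, Hmcn1, Lrrn1, Lrrn2 and Lrrn3 were 3.11 to 5.04, near or below the 40th percentile. There a difference depends on the floor of the scale. Genes this dim in ieSCs enter the test mostly through the MEF arrays and can hardly be called higher in ieSCs. The count of relatives that fell is thus set in part by the filter.

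Among the fibulins, Fbln5, Fbln7, Fbln1 and the related matrix gene Hmcn1 fell, with differences of -7.1, -3.78, -3.42 and -3.38. Efemp2 (fibulin-4), the nearest relative of Efemp1, did not pass, at -0.27 (limma adjusted p = 0.169), and neither did Fbln2, at -0.63, over all ieSCs. Fbln2 fell by 1.10 in TTF-derived ieSCs (limma adjusted p = 0.0132) and was lower there than in MEF-derived ieSCs, at -0.95 (limma adjusted p = 0.013). Fbln1, unlike Efemp1, was higher in TTF-derived than in MEF-derived ieSCs, by 6.69 (limma adjusted p = 6.43e-08). It stood at a mean of 13.55 in TTF-derived and 6.87 in MEF-derived ieSCs, against 13.63 in MEFs. Over all ieSCs, Upk1a, the other tetraspanin uroplakin, rose by 0.53 and Muc20 by 0.49, while Muc1, Muc4 and Muc13 did not pass. Upk1a did not pass in MEF-derived ieSCs, at 0.41 (limma adjusted p = 0.062). Muc1 rose by 0.64 in TTF-derived ieSCs (limma adjusted p = 0.0289), and Muc13 by 0.76 in MEF-derived ieSCs (limma adjusted p = 0.0408). Mslnl, the mesothelin-like gene, rose by 1.81 in MEF-derived ieSCs (limma adjusted p = 0.00278) and did not pass in TTF-derived ieSCs, at 0.33 (limma adjusted p = 0.519). The 2 kinds differed in Mslnl by -1.47 (limma adjusted p = 0.00448). Upk2 and Upk3a were below the filter in all groups, with mean levels of 3.75 to 4.88.

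**Figure D4:**
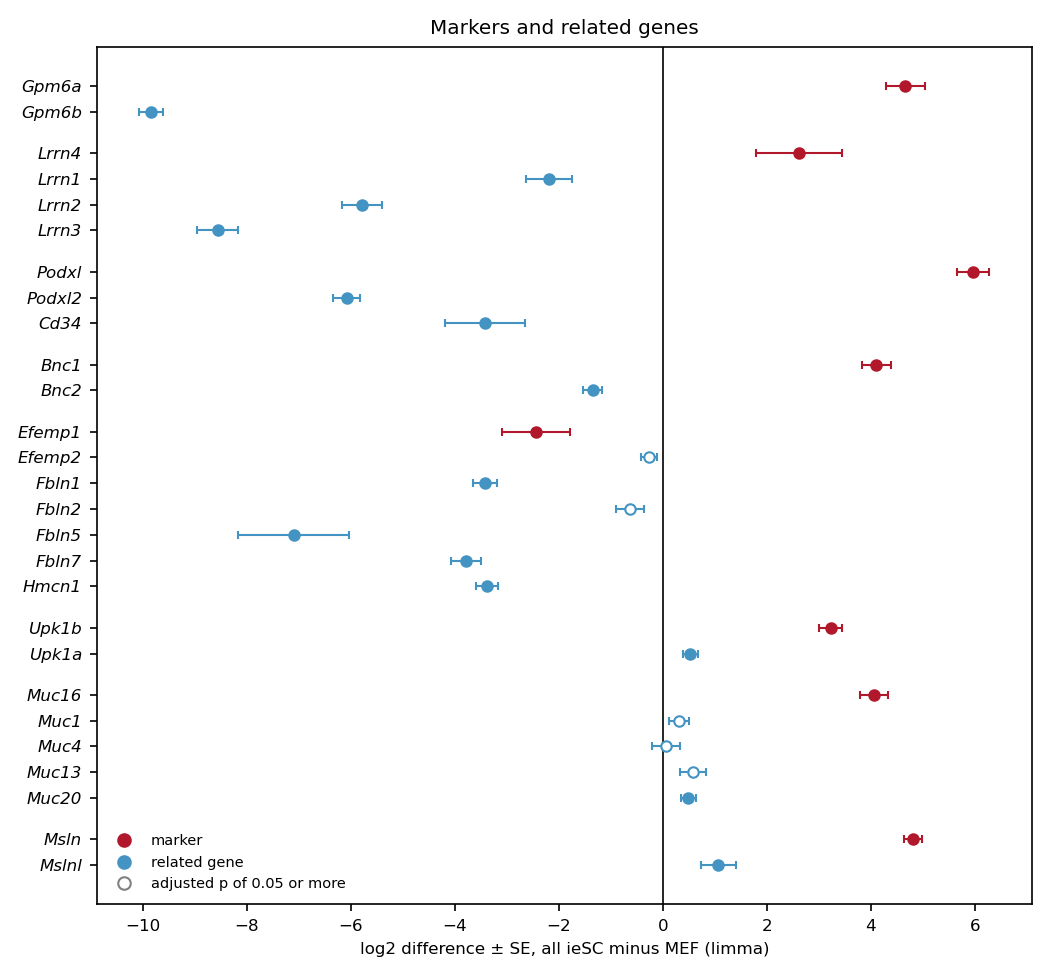
Log2 difference of all ieSCs minus MEFs (horizontal axis, limma estimate ± SE) for 8 markers, in red, and related genes of their families, in blue. Open points had an adjusted p of 0.05 or more. Gpm6a, Lrrn4, Podxl and Bnc1 lie above 0 and their relatives below it.

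A wider list of 30 mesothelial and coelomic epithelium genes did not move one way. Of 27 tested, 11 were higher in ieSCs and 12 lower, with a median of 0.193, where 25.9% and 23.6% of all genes were. Aldh1a1, a retinaldehyde dehydrogenase, rose by 5.65, the claudin gene Cldn15 by 6.36 ± 0.30 and Nkain4, which encodes a partner of the sodium pump, by 3.29 ± 0.16. The transcription factor gene Hand2 fell by 5.25, with ieSC means of 5.00 in TTF-derived and 4.77 in MEF-derived ieSCs that lie near or below the 40th percentile, where the size depends on the floor. These 4 genes have the smallest p of the list. Wt1 and Gata4, counted in the list with differences of 5.6 and -1.9, are also transgenes of the ieSCs. Whether their features read transgene RNA was not tested. Gpc3, Osr1 and Pdpn fell further than Hand2, at -7.34, -6.98 and -6.56. The ieSC means of Gpc3 and Osr1, 4.296 to 5.605, are also dim. Calb2 (calretinin), Cdh1 (E-cadherin) and Itln1 were below the filter, with mean levels of 3.86 to 4.92. Calretinin is a widely used mesothelial marker, and its levels were 3.88 in TTF-derived and 4.05 in MEF-derived ieSCs, against 3.86 in MEFs.

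The uroplakins and podocalyxin are also known from urothelium, podocytes and endothelium, so lists of other markers of those cells were read. Of 11 tested urothelial genes 3 were higher in ieSCs and 2 lower. The counts were 3 and 3 of 9 podocyte genes and 3 and 3 of 9 endothelial genes. Among all genes tested, 25.9% were higher and 23.6% lower. Krt13 and Psca, from the urothelial list, rose by 3.03 and 4.35, and Foxa1 and Krt20 fell, at -3.41 and -3.18. The podocyte genes Cd2ap and Plce1 rose by 3.18 and 1.77, and Foxc2 and Ptpro fell, at -5.33 and -2.11. Esam rose by 6.64 and Tek by 2.28, although Tek did not pass in MEF-derived ieSCs, at 0.68 (limma adjusted p = 0.274), and the endothelial genes Eng and Erg fell, at -3.6 and -3.29. The MEF means of Krt13 and Esam were 4.003 and 4.936. The TTF-derived means of Foxa1, Krt20, Foxc2 and Erg were 3.59 to 3.80, and the MEF-derived means of Foxa1, Krt20 and Erg were 3.39 to 5.08. These dim levels lie near or below the 40th percentile, so the sizes of the differences of these 6 genes depend on the floor of the scale. The endothelial genes Cdh5, Emcn and Tie1 were below the filter. So were the urothelial genes Upk2, Upk3a, Elf3 and Shh. Other endothelial genes were above it: Egfl7 rose by 0.65 and Pecam1 fell by 0.77. Kdr did not pass, with group means of 11.21 to 11.54.

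Markers of the labelled cell types were read from the same arrays. For the counts below, 25.9% of all genes were higher in ieSCs than in MEFs and 23.6% lower. Over all ieSCs, of 12 tested fibroblast genes 0 rose and 10 fell. Their mean log2 level was 9.3 to 10.38 in TTF-derived and 9.01 to 9.32 in MEF-derived ieSCs, against 15.65 in MEFs. Not all of them were dim in ieSCs: the group means of Col1a1, Fn1 and Dcn were 16.74 to 18.7 there, against 17.26 to 17.83 in MEFs. Fn1 and Dcn did not pass over all ieSCs, and Dcn rose by 1.44 in TTF-derived ieSCs (limma adjusted p = 0.0381). Of 14 tested embryonic Sertoli genes 8 rose and 5 fell, with mean levels of 8.8 to 9.03 and 9.27 to 9.41, against 7.69 to 7.71 in MEFs. The Sertoli genes Amh and Fshr were below the filter. Dhh rose by 7.23 and Wt1 by 5.6, and Sox9 fell by 3.46. Wt1 and Sox9 are among the transgenes of the ieSCs. The other transgenes, Gata4, Nr5a1 and Dmrt1, were also lower, with differences of -1.9, -0.678 and -0.505. Whether these features read transgene RNA, endogenous RNA or both was not tested. Markers of macrophages and smooth muscle moved with the same comparison. All 11 macrophage genes and all 7 smooth muscle genes were lower in ieSCs, with median differences of -6.08 and -4.92. The mean macrophage level was 5.7 to 5.88 in TTF-derived and 5.74 to 5.97 in MEF-derived ieSCs, against 11.77 to 11.79 in MEFs. On every array of TTF-derived and of MEF-derived ieSCs, 3 and 4 of the macrophage genes were below the 40th percentile. The smooth muscle level was 9.45 to 9.54 and 9.52 to 10.6, against 15.03 in MEFs. The part of cell composition in the differences of the 9 markers was not tested. Across all features, the correlation was 0.9896 to 0.9966 between arrays of a name and 0.926 to 0.9408 between an ieSC and a MEF array.

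**Figure D5:**
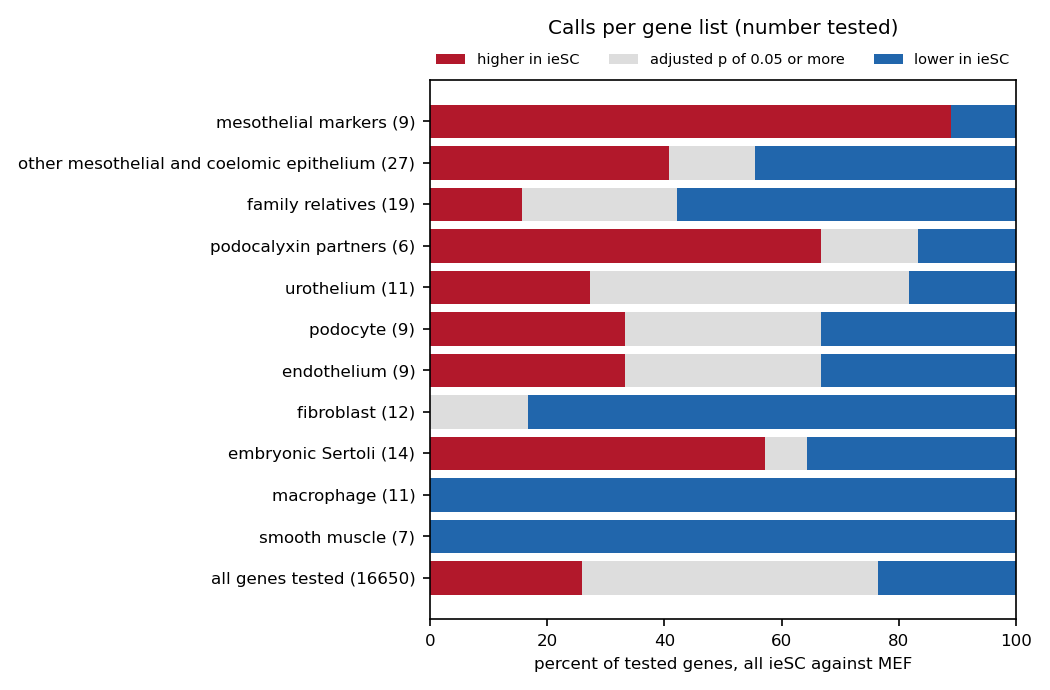
Percent of tested genes (horizontal axis) that were higher in ieSCs (red), did not pass an adjusted p of 0.05 (grey) or were lower (blue), for all ieSCs against MEFs. Rows are the gene lists, with the number tested, and all 16650 genes at the bottom. The 9 markers show 8 higher and 1 lower.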

How the data were processed

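The deposited table holds the authors' log2 intensities for 62976 features on 10 arrays. Of tools, the submitters' processing notes give limma without a version. How background was corrected is not stated in the labels. Above the 40th percentile the sorted columns lie within 0.0379 of each other, as after quantile normalization, so a change in total mRNA cannot be seen. The log base was taken from the range, 0.288 to 19.02. The table has no detection flags.

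Features were named from the platform annotation (31465 with 1 symbol, 0 with several, 31511 with none), updated through RefSeq accessions (29050 matched) and unique synonyms. Kept features were above the 40th percentile of their array on at least 2 arrays (42617), and a gene was its kept feature with the highest mean (16650 genes).

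Group means were fitted with limma 3.58.1 (R 4.3.3, statmod 1.5.0), with the source name as a random block (consensus correlation 0.606). P-values were two-sided and adjusted over all genes with a threshold of 0.05, and 95% intervals come from the same fit. Precision is limited by the number of arrays, with a median SE over genes of 0.174 for all ieSCs against MEFs and 0.156 between ieSC groups. The members and lists were chosen with earlier results of these data known. Named genes are the 9 members, up to 4 genes per list by smallest p and the 3 genes with the most similar pattern to each member. Further relatives, some further listed genes, and listed genes below the filter, are named beyond this rule and were chosen after their values were seen. The median over all genes was 0.0851 for all ieSCs against MEFs.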

Additional observations from a re-analysis of the deposited data

Results flagged for a closer look

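The effect against MEFs differed between TTF-derived and MEF-derived ieSCs for 2 of the 9 markers, by the test of the difference itself, as it did for 5998 of 16650 genes (16.8% higher and 19.3% lower). With averaged arrays both calls were lost (limma adjusted p = 0.185 for Gpm6a and 0.059 for Efemp1). Gpm6a was higher in TTF-derived than in MEF-derived ieSCs by 1.19 on the log2 scale (limma adjusted p = 0.0213), with mean levels of 15.84 and 14.65, against 10.58 in MEFs. Efemp1 differed by -4.24 (limma adjusted p = 0.000488), with mean levels of 8.60 in TTF-derived and 12.85 in MEF-derived ieSCs, against 13.17 in MEFs. Within name 1 the TTF-derived minus MEF-derived differences were 1.67 for Gpm6a and -3.77 for Efemp1, and within name 2 they were 0.71 and -4.72. No marker had a single array far from the others of its ieSC group by Dixon's test at its 95% critical value for 4 samples. That test looks for 1 outlying array, so it could not show a split of 2 and 2 arrays by source name. The 2 MEF arrays are too few for it.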

How the results depend on the processing

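The alternatives were no name block, averaged arrays of a name, no or a stricter filter on dim features, dim values raised to the 40th percentile, the mean of a gene's features, another centring, a trend in the prior variance, the series of the label codes as a term, and leaving out each array or each ieSC name. Against MEFs, 7 of the 9 markers (all but Efemp1 and Lrrn4) kept their direction and call under all 23 alternatives in each of the 3 comparisons, with adjusted p of at most 0.0157. Some alternatives are weak checks of these markers. The columns are alike, so another centring could hardly matter. All 7 but Podxl lie above the 40th percentile on every array, so the settings for dim features could hardly change their values. With averaged arrays, where the lone MEF value is assumed to vary like the other groups, the genes called were 5493 for all ieSCs, 4763 for TTF-derived ieSCs and 2421 between ieSC groups, against 8248, 7512 and 5998. There limma called 0 of the 9 markers between ieSC groups, with 1 at an unadjusted p under 0.05. Leaving out an array or a name gave 8 to 9 markers for all and for TTF-derived ieSCs, 7 to 8 for MEF-derived ieSCs and 1 to 6 between ieSC groups. In the same fits 7329 to 9167, 6729 to 8246, 7705 to 9658 and 5044 to 6588 genes were called over all genes. Between ieSC groups it was 6 markers and 5945 genes without MEF-derived name 2, 4 and 6588 without TTF-derived name 1, 1 and 5659 without TTF-derived name 2, and 1 and 5044 without MEF-derived name 1. All reversals were of differences that had not passed. Over the leave-outs the difference between ieSC groups was -0.203 to 0.193 for Upk3b, -0.535 to 0.0815 for Upk1b, -0.0252 to 0.908 for Podxl and -0.0754 to 0.718 for Muc16, and that of Efemp1 in MEF-derived ieSCs against MEFs was -0.934 to 0.286. The cause was not tested. The name numbers 1 and 2 are not stated to pair preparations, and the differences of name 2 from name 1 correlated at 0.297 over genes between the 2 kinds of ieSC. With the number as a replicate block over the 8 ieSC arrays and no name block, 7 of the 9 markers and 9442 genes were called between the ieSC groups. Dim levels limit what can be said of Podxl in MEFs.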

Other observations

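The genes whose levels over the 10 arrays were most like those of each marker, by Pearson correlation among 4308 other genes spanning at least 2 on the log2 scale, are given as a description. The arrays fall into groups that set much of each value. For Msln they were Rnf208, Ucp2 and Zfp345 (0.9975 to 0.9979), and for Upk3b Prkx, Col4a5 and Tfap2a (0.998 to 0.9985). For Upk1b they were 5033406O09Rik, Naip6 and Cdsn (0.9947 to 0.995), and for Podxl Dbndd1, Spns3 and Add3 (0.9983 to 0.999). For Muc16 they were Spns2, Foxo6 and Dbndd1 (0.998 to 0.9987), and for Bnc1 Card10, Spns2 and Cldn15 (0.9976 to 0.9993). Gpm6a was followed most closely by Sema4a, Cdkn2c and Pdk1 (0.9959 to 0.998). The closest genes to Lrrn4, Mmp3, Atp6v0a4 and Gsr, reached 0.9663 to 0.9701. Those of Efemp1 were Tspan18, Ptprv and Cdnf (0.9894 to 0.9943), which were lower in TTF-derived than in MEF-derived ieSCs with differences of -3.68, -3.69 and -1.85. No marker was among the 3 closest genes of another marker. The markers other than Lrrn4 and Efemp1 still correlated with each other at 0.891 to 0.997 over the 10 arrays. Over the ieSC arrays alone, their correlations were -0.773 to 0.964.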
